A study of Mus musculus with 13 samples.

Results

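The aminoacyl-tRNA synthetases were described here gene by gene in the gastrocnemius, a calf muscle, of mice that overexpress the uncoupling protein UCP1 in skeletal muscle. The family was taken by gene symbol as 38 genes: 20 enzymes of the cytosol, 15 enzymes of the mitochondria (symbols ending in 2) and 3 scaffold proteins, Aimp1, Aimp2 and Eef1e1. The rule uses symbols alone, but the family was picked with earlier results of these data known. All 38 were on the array, with 47 probes, and 36 were bright enough to be among the 17257 genes tested. RNA came from 7 UCP1 transgenic mice and 6 wild-type littermates, all male C57BL/6J, studied from an age of 12 weeks and all on a purified diet low in fat during 12 weeks. The labels place the transgene in skeletal muscle and name neither its promoter nor the line. One mouse was measured on 1 array, in Cy5, against a Cy3 reference pool common to all arrays, so each value is a log2 ratio to that pool and is compared only between mice.

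An aminoacyl-tRNA synthetase joins an amino acid to its tRNA, the step that gives the ribosome its building blocks. Mammalian cells make separate enzymes for the cytosol and for the mitochondria for most amino acids, all from nuclear genes, while Gars and Kars each supply both compartments. Several cytosolic enzymes sit together in a multisynthetase complex held by the scaffold proteins. When charged tRNA runs short, the kinase GCN2 senses the uncharged form and the translation of the transcription factor ATF4 increases. ATF4 is known to act on genes of amino acid synthesis, amino acid transport and tRNA charging through an amino acid response element. The title of the study names amino acid deprivation from UCP1 overexpression as its subject.

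The arrays held 20643 to 24036 probes well above background, and no spot was saturated. The log2 ratios of 2 arrays correlated across genes at 0.38 to 0.73 within the transgenic group, at 0.52 to 0.77 within wild type and at -0.25 to 0.15 between the groups. Ucp1 was -0.20 to 0.85 in transgenic muscle (median 0.34) and -4.23 to 0.45 in wild-type muscle (median -3.59). The array labelled wild type 4, at 0.45, lay inside the transgenic range, and the other wild-type arrays were at -2.82 or lower. The difference of Ucp1 was 3.23 ± 0.50 (SE, limma adjusted p = 5.5e-05) with that array and 3.91 ± 0.20 without it. Results are therefore given with it, and without it where that changes a call. Skeletal muscle markers were present on all arrays: their summed Cy5 signal was 1113370 to 1250860 in transgenic muscle and 1349280 to 1593850 in wild-type muscle. Of 12 markers 1 was higher and 7 were lower in transgenic muscle, against 16.9% and 16.1% of all genes. In whole muscle, fewer cells of a type and less RNA per cell cannot be told apart.

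Most cytosolic synthetases were higher in transgenic muscle. Of 20 enzymes, 14 passed the threshold upward, 0 passed downward and 6 did not pass (limma, Benjamini-Hochberg adjusted p under 0.05 over 17257 genes). Of all genes tested, 33.0% passed, 16.9% higher and 16.1% lower in transgenic muscle. The median difference of the 20 enzymes was 0.50 on the log2 scale, against -0.00 for all genes. In 11 of the 20 every transgenic array lay above every wild-type array, which held for 7.47% of all genes, and the opposite order held for none of the 20 and for 7.26% of all genes. The 14 enzymes that passed were 1.11-fold to 2.55-fold higher, with a median of 1.55-fold. Without the array labelled wild type 4, 13 of the 20 passed. A normalization by the median of each array without loess moved the median of all genes to 0.14, called 1303 genes with 79.7% of them higher (51.1% with loess), and left 11 cytosolic enzymes above the threshold, with a median 0.60 above that of all genes.

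**Figure D1:**
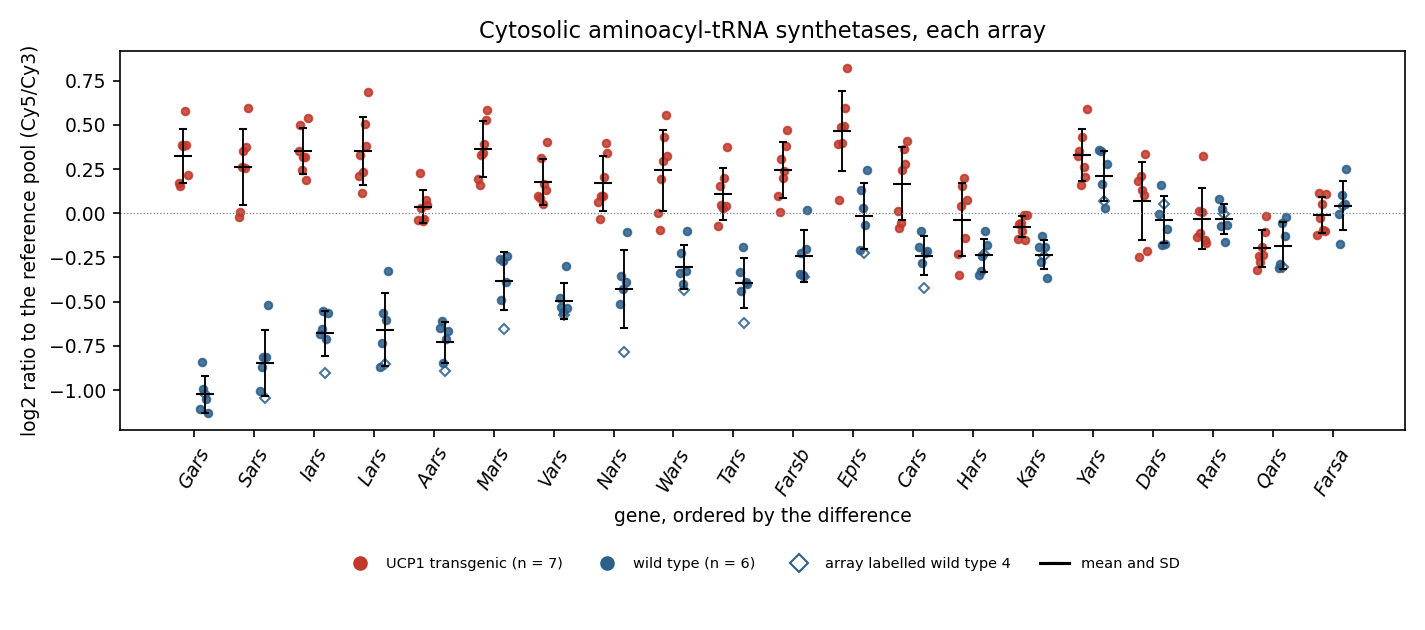
Log2 ratio to the reference pool (vertical axis) of the 20 cytosolic synthetases on each array, transgenic mice on the left of each gene and wild-type mice on the right, with the mean and SD. Genes run by the size of the difference: the arrays of Gars, Sars, Iars, Lars, Aars, Mars and Vars do not overlap between the groups, and those of Rars, Qars and Farsa lie over each other.

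Gars, which charges glycine tRNA, had the largest increase of the family. Its log2 ratio was 0.15 to 0.58 in transgenic muscle (median 0.38) and -1.13 to -0.84 in wild-type muscle (median -1.04). No transgenic array came within the wild-type range. The difference was 1.35 ± 0.08 (SE), or 2.55-fold, with an adjusted p of 5.9e-11, measured by a probe at chr6:55029377-55029436 (mm9, forward strand).

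Sars, which charges serine tRNA, was -0.02 to 0.60 in transgenic muscle (median 0.26) and -1.05 to -0.52 in wild-type muscle (median -0.84). Iars, the isoleucine enzyme and a complex member, was 0.19 to 0.54 in transgenic muscle (median 0.32) and -0.90 to -0.55 in wild-type muscle (median -0.67). Lars, the leucine enzyme of the same complex, was 0.12 to 0.69 in transgenic muscle (median 0.33) and -0.87 to -0.33 in wild-type muscle (median -0.67). The groups were apart in all 3 genes, and the levels in transgenic muscle were 2.15-fold (Sars), 2.04-fold (Iars) and 2.01-fold (Lars) those in wild type. The differences were 1.11 ± 0.10 for Sars (adjusted p = 6.1e-08), 1.03 ± 0.07 for Iars (adjusted p = 2.2e-09) and 1.01 ± 0.10 for Lars (adjusted p = 1.8e-07).

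A middle range of 0.60 to 0.77 held 4 enzymes. Aars, for alanine, was -0.04 to 0.23 in transgenic muscle (median 0.03) and -0.89 to -0.61 in wild-type muscle (median -0.69), a difference of 0.77 ± 0.07. Mars, for methionine and so also for the initiator tRNA, was 0.16 to 0.58 in transgenic muscle (median 0.34) and -0.65 to -0.24 in wild-type muscle (median -0.33), a difference of 0.75 ± 0.08. Vars, for valine, was 0.05 to 0.40 in transgenic muscle (median 0.13) and -0.57 to -0.30 in wild-type muscle (median -0.54), a difference of 0.67 ± 0.07. With Lars and Iars, Vars completes the enzymes of the branched-chain amino acids, and in all 3 the groups did not overlap. Nars, for asparagine, was -0.03 to 0.40 in transgenic muscle (median 0.10) and -0.78 to -0.11 in wild-type muscle (median -0.41), and its groups were also apart (difference 0.60 ± 0.09, adjusted p = 6.3e-05).

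The next 6 enzymes differed by less. Wars (tryptophan) differed by 0.55, Tars (threonine) by 0.51, Farsb (the beta subunit for phenylalanine) by 0.49, Eprs (glutamate and proline in 1 protein) by 0.48 and Cars (cysteine) by 0.41, with adjusted p between 5.8e-05 (Tars) and 0.0012 (Cars). In Wars, Tars and Cars every transgenic array was above every wild-type array, and in Farsb and Eprs the ranges overlapped. Wars was -0.09 to 0.56 in transgenic muscle (median 0.30) and -0.44 to -0.10 in wild-type muscle (median -0.33). Tars was -0.07 to 0.37 in transgenic muscle (median 0.05) and -0.62 to -0.19 in wild-type muscle (median -0.39). In both the gap between the groups was small beside the spread within them. Eprs was 0.08 to 0.82 in transgenic muscle (median 0.49) and -0.22 to 0.25 in wild-type muscle (median -0.02). Farsb was 0.01 to 0.47 in transgenic muscle (median 0.24) and -0.36 to 0.02 in wild-type muscle (median -0.28), and Cars was -0.08 to 0.41 (median 0.24) against -0.42 to -0.10 (median -0.22) in wild-type muscle. Both kept probes of Wars passed, with differences of 0.55 and 0.32. Kars, for lysine, was -0.15 to -0.01 in transgenic muscle and -0.37 to -0.13 in wild-type muscle, a difference of 0.16 ± 0.06 that passed narrowly (adjusted p = 0.047). Kars missed the threshold in 10 of the 13 fits that left out 1 array, among them the fit without the array labelled wild type 4 (adjusted p = 0.073), with adjusted p up to 0.112.

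The 6 cytosolic enzymes that did not pass were Hars (histidine), Yars (tyrosine), Dars (aspartate), Rars (arginine), Qars (glutamine) and Farsa (the alpha subunit for phenylalanine). Their differences were 0.20 ± 0.09 for Hars (adjusted p = 0.081), 0.12 ± 0.08 for Yars, 0.11 ± 0.09 for Dars, 0.00 ± 0.08 for Rars, -0.01 ± 0.07 for Qars and -0.05 ± 0.07 for Farsa. In all 6 the arrays of the groups overlapped. Hars was -0.35 to 0.20 in transgenic muscle and -0.35 to -0.10 in wild-type muscle, and its lowest arrays in the groups were at the same level. Yars was 0.16 to 0.59 in transgenic muscle and 0.03 to 0.36 in wild-type muscle, and its probe was well above background on 6 transgenic and 4 wild-type arrays. The other 35 tested genes of the family were well above background on all 13 arrays. The signs of Rars, Qars and Farsa changed between settings, so no direction is given for them. Hars passed with the slide as a fixed or as a random block, which made 15 enzymes.

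Farsa and Farsb encode the 2 subunits of 1 enzyme, and their values were set against each other after they had been seen. Within an array, Farsb minus Farsa was 0.25 ± 0.19 in transgenic muscle and -0.29 ± 0.14 in wild-type muscle (SD, n = 7 and 6). A second kept probe of Farsa gave -0.06, close to the -0.05 of the first.

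Complex membership and enzyme class gave similar counts. Of the 8 enzymes of the multisynthetase complex 5 were higher, with a median difference of 0.32, and of the 12 free enzymes 9 were higher, with a median of 0.53. The complex held Iars and Lars, next in the order after the free enzymes Gars and Sars, and also Dars, Qars and Rars, which did not pass. Class I and class II enzymes, which differ in the fold of the catalytic domain, had 6 of 9 and 7 of 10 higher, with medians of 0.55 and 0.50. The bifunctional Eprs belongs to both classes and was counted in neither.

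Promoters were searched because the cytosolic enzymes moved together. RefSeq (GRCm38.p6) gave promoters, from 250 bases before to 50 after the start, for 29 of the 38 genes. The core TGATGNAA of the amino acid response element, with TTNCATCA on the other strand, was found in 5 of the 29 genes, against 4.51% of 27025 genes and 3.97% of 32851 promoters. The 5 were Aars, Gars, Iars and Tars, which were higher, and Yars, which did not pass. That made 4 of the 9 higher cytosolic enzymes with a promoter, 1 of the 4 that did not pass, 0 of 13 mitochondrial enzymes and 0 of 3 scaffold genes. The 30 bases around 1 match in each gene are shown to let the elements be compared, 5′ to 3′ along the gene, with the match in capitals.
Aars, chr8:111033840-111033869, forward strand: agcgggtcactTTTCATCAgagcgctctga
Gars, chr6:55037960-55037989, forward strand: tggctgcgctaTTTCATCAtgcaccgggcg
Iars, chr13:49682126-49682155, forward strand: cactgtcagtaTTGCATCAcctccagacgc
Tars, chr15:11399655-11399684, reverse strand: caggagtcccgTTGCATCAgctggttagct
Yars, chr4:129189895-129189924, forward strand: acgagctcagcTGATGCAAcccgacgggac

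In Aars, Gars, Iars and Tars the match read TTGCATCA or TTTCATCA along the gene, and in Yars it read TGATGCAA, the opposite orientation. Counted from the annotated start, with negative positions before it, the matches shown began at 9 in Aars, -30 in Gars, -15 in Tars, 7 in Iars and 3 in Yars. A match is a description of letters and not of a bound site. Sars, higher by 1.11, had no match in its window. The full cyclic AMP response element TGACGTCA was in 0 of the 29 genes, against 2.03% of the 27025 genes and 1.79% of all promoters, and CCAAT or its reverse ATTGG was in 16 of the 29, against 41.1% of the 27025 genes and 37.4% of all promoters. None of these motifs contains another. The promoter of Gars, which had the largest increase, is given with its match in capitals.
Gars, chr6:55037751-55038000, forward strand: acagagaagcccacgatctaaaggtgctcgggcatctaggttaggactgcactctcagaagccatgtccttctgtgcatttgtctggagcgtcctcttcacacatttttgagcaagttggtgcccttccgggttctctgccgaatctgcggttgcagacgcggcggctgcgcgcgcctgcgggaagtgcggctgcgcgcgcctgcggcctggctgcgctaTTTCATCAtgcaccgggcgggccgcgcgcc

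Of 15 mitochondrial enzymes 13 could be tested: 3 (23.1%) were higher, 0 were lower and 10 did not pass, against 16.9% and 16.1% of all genes called higher and lower. The share called higher was near that of all genes. The median difference of the 13 was 0.06. Under the median normalization without loess 1 of the 13 passed and the median was 0.12 above that of all genes. Mars2 was well above background on 2 transgenic and 0 wild-type arrays, Nars2 on none, and neither was compared.

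Ears2, which charges mitochondrial glutamate tRNA, was -0.00 to 0.32 in transgenic muscle (median 0.13) and -0.73 to -0.27 in wild-type muscle (median -0.41). It was the 1 mitochondrial enzyme in which the groups did not overlap. Its difference was 0.62 ± 0.08 (adjusted p = 5.4e-06), within the range of the cytosolic enzymes, and the array labelled wild type 4 was its lowest. Tars2, for threonine, was higher by 0.42 ± 0.09 (adjusted p = 0.0016) and Wars2, for tryptophan, by 0.28 ± 0.07 (adjusted p = 0.0032). Tars2 was -0.05 to 0.26 in transgenic muscle (median 0.17) and -0.60 to -0.00 in wild-type muscle (median -0.28). Wars2 was -0.11 to 0.21 in transgenic muscle (median 0.10) and -0.28 to -0.07 in wild-type muscle (median -0.22). In both the lowest transgenic array lay within the wild-type range. The second probe of Tars2 also passed, with 0.21.

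The 10 mitochondrial enzymes that did not pass lay between -0.13 and 0.12. Pars2 (proline) was at 0.12, Sars2 (serine) at 0.10, Yars2 (tyrosine) at 0.06, Cars2 (cysteine) at 0.06, Fars2 (phenylalanine) at 0.04 and Lars2 (leucine) at 0.02. Iars2 (isoleucine) was at -0.01, Hars2 (histidine) at -0.05, Aars2 (alanine) at -0.06 and Rars2 (arginine) at -0.13. The standard errors of these 10 were between 0.06 and 0.11, and the arrays of the groups overlapped in each.

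**Figure D2:**
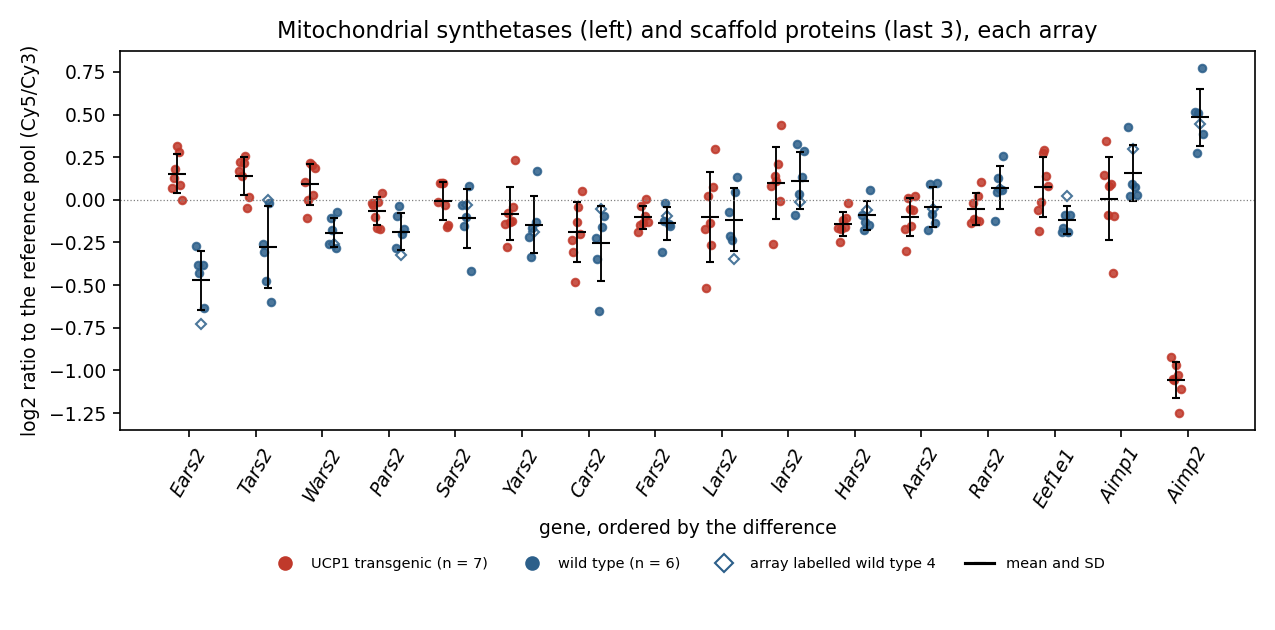
Log2 ratio to the reference pool (vertical axis) of the 13 tested mitochondrial synthetases and the 3 scaffold proteins on each array, transgenic mice on the left of each gene and wild-type mice on the right, with the mean and SD. Ears2 and Aimp2 are the 2 genes whose groups do not overlap, Ears2 with the transgenic arrays above and Aimp2 with them below.

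For one amino acid, the change of the cytosolic enzyme was set against that of the mitochondrial one as the cytosolic minus mitochondrial log2 ratio within each array. In 8 of the 13 measured pairs this difference passed as larger in transgenic than in wild-type muscle, and in 0 did it pass as smaller. The test was an exact permutation test of the 1716 splits, two-sided. The 8 pairs had a Benjamini-Hochberg adjusted p of 0.025 or lower over 13 pairs. The difference of the 2 changes was 1.04 for Iars and Iars2, 1.00 for Sars and Sars2, 1.00 for Lars and Lars2 and 0.83 for Aars and Aars2. In these 4 pairs the groups did not overlap, and the exact p was 0.000583, the smallest the design allows (adjusted p = 0.0019).

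The other 4 pairs that passed were Eprs and Pars2 (0.36), Cars and Cars2 (0.34), Wars and Wars2 (0.27) and Hars and Hars2 (0.25). Hars itself did not pass against wild type, so its pair rests on a small cytosolic value of 0.20 and a mitochondrial one of -0.05, and the pair missed the threshold without wild type 1 or wild type 6 (adjusted p up to 0.053). From Cy5 alone, without the reference channel, Hars minus Hars2 (0.24, adjusted p = 0.117) and Cars minus Cars2 (0.46, adjusted p = 0.061) missed it by the exact permutation test. The pair of Wars missed it under 5 alternatives, the mean over probes among them. Eprs entered 2 pairs, since it charges both glutamate and proline tRNA.

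In 5 pairs no difference between the changes passed. These were Eprs and Ears2 (-0.14, adjusted p = 0.448), Farsa and Fars2 (-0.09, adjusted p = 0.394), Rars and Rars2 (0.13, adjusted p = 0.315), Tars and Tars2 (0.09, adjusted p = 0.586) and Yars and Yars2 (0.06, adjusted p = 0.586), all by the exact permutation test. From the Agilent log ratio Tars minus Tars2 passed, at 0.25 (adjusted p = 0.028). For glutamate and threonine both enzymes were higher in transgenic muscle, and for arginine, tyrosine and phenylalanine (Farsa) neither passed. The other phenylalanine subunit, Farsb, was higher by 0.49 and was not set against Fars2.

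**Figure D3:**
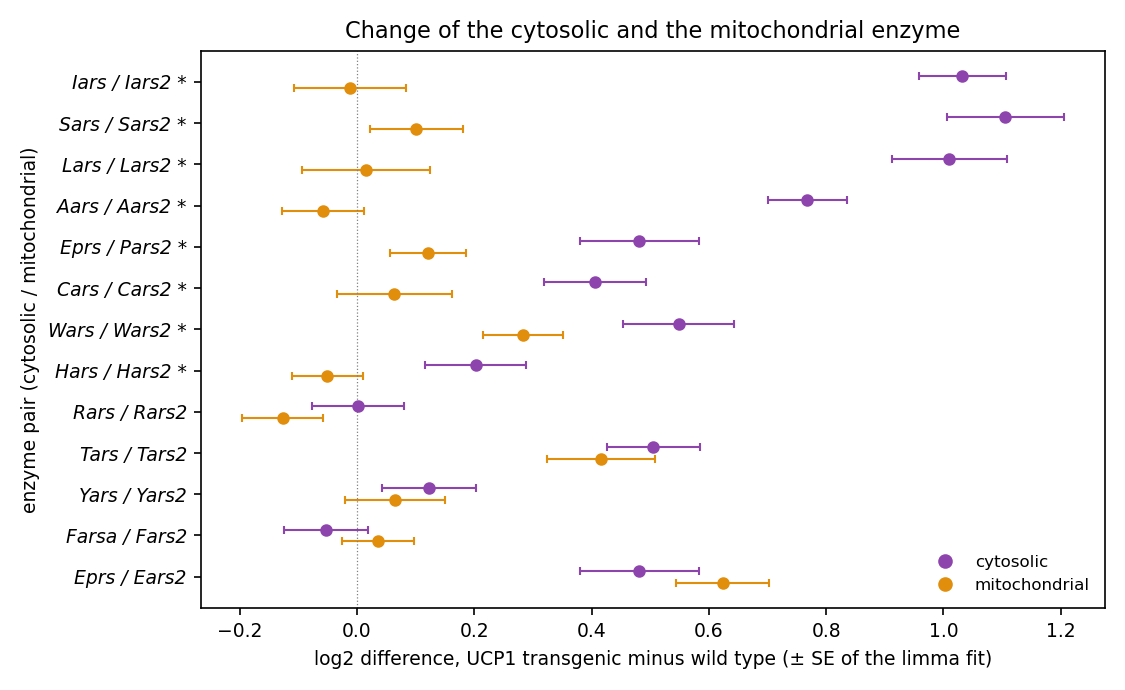
Log2 difference, transgenic minus wild type, with the SE of the limma fit (horizontal axis) of the cytosolic and the mitochondrial enzyme of 13 pairs, with an asterisk where the difference of the 2 changes passed. The cytosolic points of Iars, Sars and Lars lie at 1.01 to 1.11 while their mitochondrial points lie at -0.01 to 0.10, and the points for Eprs and Ears2 and for Tars and Tars2 lie close together to the right of 0.

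Of the 3 scaffold proteins, 0 were higher and Aimp2 was lower. Aimp2, which helps to hold the multisynthetase complex together, was -1.25 to -0.92 in transgenic muscle (median -1.05) and 0.28 to 0.77 in wild-type muscle (median 0.48). Every transgenic array was below every wild-type array by more than 1 log2 unit. The difference of -1.54 ± 0.08, 2.91-fold lower in transgenic muscle, had an adjusted p of 1.2e-11 and came from a single probe at chr5:144663574-144663633 (mm9, reverse strand). It was between -1.76 and -1.44 within the 4 slides, and -1.55 without the array labelled wild type 4. Nearby genes were looked up after the result of Aimp2 had been seen. Eif2ak1 and Pms2 differed in the same direction, at -0.21 (adjusted p = 0.052) and -0.19 (adjusted p = 0.098), and did not pass. Ankrd61, also looked up there, was not among the genes tested.

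The calls of the other scaffold proteins depended on the setting. Aimp1, which is also the precursor of a secreted cytokine, was -0.43 to 0.34 in transgenic muscle and 0.02 to 0.42 in wild-type muscle, and its difference of -0.15 ± 0.10 did not pass (adjusted p = 0.291). It was lower within each of the 4 slides (-0.31 to -0.15), and with the slide as a fixed block Aimp1 passed (-0.22, adjusted p = 0.017), as it did with the Agilent log ratio (-0.21, adjusted p = 0.0014). Eef1e1, the third scaffold protein, was -0.18 to 0.29 in transgenic muscle and -0.19 to 0.02 in wild-type muscle, at 0.19 ± 0.08 (adjusted p = 0.067). Without the array labelled wild type 4 Eef1e1 passed, with an adjusted p of 0.047, and it also passed when slides entered the fit as fixed (adjusted p = 0.023) or random blocks (adjusted p = 0.039), without transgenic 2, with the Agilent log ratio and with Cy5 only.

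Single mice kept a partial order across the enzymes. The median over the 20 cytosolic enzymes was 0.04 to 0.36 in transgenic arrays and -0.43 to -0.20 in wild-type arrays. Transgenic 7 had the highest median and was the highest transgenic array in 10 of the 14 enzymes that passed, and the array labelled wild type 4 had the lowest and was the lowest wild-type array in 11 of them. The medians over the 13 mitochondrial enzymes overlapped, at -0.15 to 0.04 in transgenic and -0.22 to -0.06 in wild-type arrays. Transgenic 7 had the highest of these as well (0.04), and the array labelled wild type 4 had the highest of its group (-0.06). Whether these ranks reflect a shift of the whole array was not tested.

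**Figure D4:**
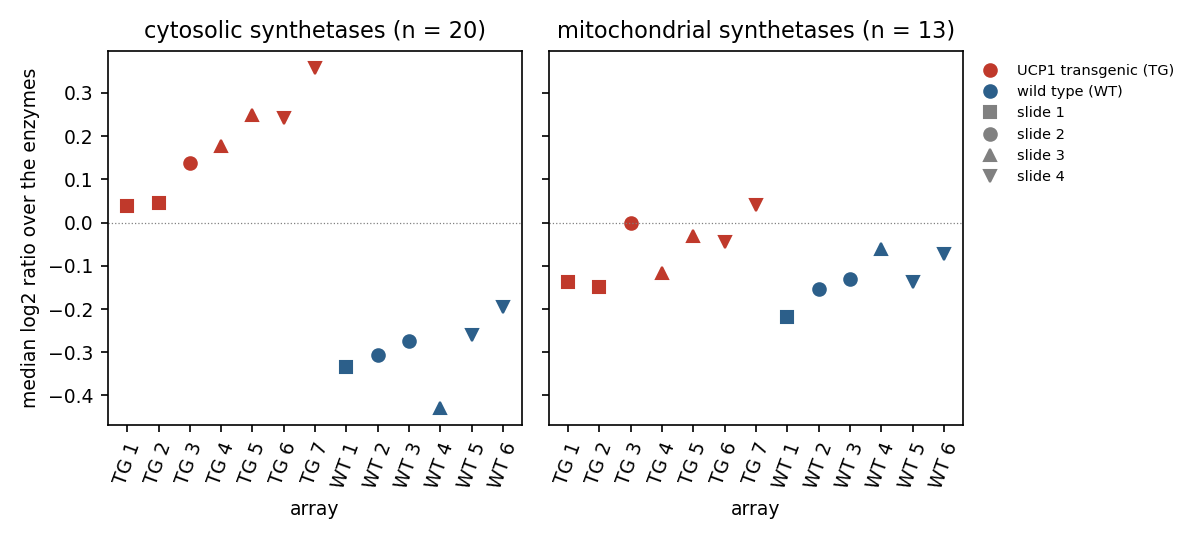
Median log2 ratio (vertical axis) over the 20 cytosolic and the 13 mitochondrial synthetases on each array, transgenic arrays on the left, with a symbol for each slide. All transgenic medians of the cytosolic enzymes are above 0 and all wild-type medians below, while those of the mitochondrial enzymes overlap.

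Each of the 4 slides held arrays of both groups, with 1 or 2 arrays of a group on a slide. The median difference of the cytosolic enzymes was 0.38, 0.45, 0.71 and 0.61 within slides 1 to 4, and that of the mitochondrial enzymes was 0.05, 0.03, 0.07 and 0.08. All 14 enzymes that passed were higher in transgenic muscle within every slide, and Gars differed by 1.27 or more in each. These are the arrays on which the 14 were called, so the values within slides describe them and add no separate support. The share of all genes with 1 direction in every slide was not counted. Ears2 differed by 0.37 to 1.03.

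Genes that act beside the synthetases were counted in lists chosen by function. Each count stands beside the shares of all genes, 16.9% called higher and 16.1% called lower. Of 7 other charging genes, Pet112l, a subunit of the mitochondrial amidotransferase that makes glutamine tRNA, was higher (0.39) and Tarsl2, a second threonine enzyme, was lower (-0.62 ± 0.07, adjusted p = 6.6e-07), with a median of 0.04 for the list. Tarsl2 had all transgenic arrays below all wild-type arrays, while Tars and Tars2 were higher. Of 5 genes that edit mischarged tRNA or recycle it, 0 passed.

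Of 17 genes of tRNA end processing, export and CCA addition, 6 were higher and 0 lower, with a median of 0.15. Xpot, which exports tRNA from the nucleus, was 0.23 to 0.56 in transgenic muscle and -0.88 to -0.68 in wild-type muscle, a difference of 1.18 ± 0.07 (adjusted p = 6.1e-11), second in size to that of Gars when set among the synthetases. Tsen15, a subunit of the tRNA splicing endonuclease, was higher by 0.65 and Pop4, of ribonuclease P, by 0.36.

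Of 10 elongation factors 3 were higher and 1 was lower, with a median of 0.05. Eef1a1, which delivers charged tRNA to the ribosome, differed by 1.52 ± 0.07 (adjusted p = 4.2e-12). Eef1a2, the form usual in adult muscle, differed by 0.28, and Eef1b2 by 0.43, while Eef1g, another subunit of the exchange factor, was lower at -0.47. The mitochondrial factors Tufm, Tsfm, Gfm1 and Gfm2 did not pass.

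Of 5 genes of the GCN2 response to uncharged tRNA 3 were higher and 1 was lower, with a median of 0.19. Atf4 was 0.43 to 0.66 in transgenic muscle and -0.32 to -0.20 in wild-type muscle, without overlap (0.80 ± 0.06, adjusted p = 2.9e-09). Gcn1l1, an activator of GCN2, was higher by 0.24, Eif2s1, which encodes the protein that GCN2 phosphorylates, by 0.19, and Impact, an inhibitor of GCN2, was lower at -0.39 (adjusted p = 0.040). Eif2ak4, which encodes GCN2, was at 0.05 and did not pass.

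Markers of some other cells also differed between the groups. Among all genes 16.9% were called higher and 16.1% lower. Of 8 measured adipocyte markers 7 were higher in transgenic muscle, with a median difference of 0.86. Their summed Cy5 signal was 32533 to 47389 in transgenic muscle and 20996 to 32631 in wild-type muscle. None was at 0, Lep and Elovl3 were not kept, and Pck1 (1.34), Cfd (1.07) and Retn (0.94) differed most. The array labelled wild type 4 had the highest mean of these markers in its group (0.27). With the mean of these markers as a covariate 13 of the 20 cytosolic enzymes were higher, with a median of 0.71, and 2 of the 13 mitochondrial enzymes, Tars2 no longer passing. That fit called 1311 of all 17257 genes higher and 1324 lower. The covariate itself differed between the groups, with a mean of 0.16 in transgenic and -0.66 in wild-type muscle. The fit therefore cannot fully separate these markers from the genotype. In the same fit the difference of Ucp1 itself was 0.69 ± 0.35 and did not pass (limma adjusted p = 0.203).

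Skeletal muscle markers had a median of -0.51, with Acta1 at -0.93, Pvalb at -0.91 and Myh4 at -0.74, and Myh1 higher by 0.62. Of 5 blood markers 4 were higher (S100a8 by 1.01, Hbb-b1 by 0.68, Alas2 by 0.62), with summed signals of 14686 to 33718 in transgenic and 9864 to 18727 in wild-type muscle. Nerve and Schwann cell markers were higher in 3 of 6 (S100b by 0.41 among them) and fibroblast markers in 2 of 7 (Col1a1 by 0.68, Col1a2 by 0.37). Of 8 endothelial, 7 macrophage and 3 satellite cell markers 1 each was lower (Kdr at -0.27, Csf1r at -0.25 and Sdc4 at -0.35), and 0 of 6 smooth muscle markers passed. The endothelial and macrophage counts were near the 16.1% of all genes called lower. The part of muscle, blood, nerve and fibroblast markers in the differences of the synthetases was not tested.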

How the data were processed

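RNA of 13 gastrocnemius muscles was hybridised to 2-colour arrays, 1 mouse per array in Cy5 and a reference pool in Cy3, with 200 ng of total RNA labelled per the labels' protocols and no dye swap. The deposited scanner files hold linear intensity values for signal and local background, a log10 ratio and flags (other values), per the file headers, written by Agilent Feature Extraction 10.5.1.1. The deposited value table was taken as log2 intensities of the authors, with column medians of 7.58 and correlations of 0.996 to 0.998 with the log2 Cy5 signal. How its background was corrected is not given in the sources used here. Per the design text its arrays were scaled with those of a larger set. It was used as an alternative.

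Signals were corrected by normexp with an offset of 50 and ratios normalized by loess within arrays (limma 3.58.1, R 4.3.3). The offset makes changes of dim genes look smaller. Of 62976 spots 3671 were controls. Control spots and spots with an outlier flag (553 to 673 per array over both channels) were left out. The filter required the Agilent flag for a Cy5 signal above background on 6 or more of 13 arrays (37.1% to 43.2% of probes had it on an array). It left 22716 of 55681 probes, and the brightest probe stood for a gene, which gave 17257 genes. Groups were compared by lmFit and eBayes on all arrays without a covariate, two-sided, with Benjamini-Hochberg adjustment over all genes at 0.05. Errors are SE of the fit for differences and SD between mice for group values. The number of arrays limits the precision. The labels call the samples individual mice. The fit was tested on simulated data with independent arrays and few changed genes, so that test does not cover shifts shared by arrays.

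The members, gene lists and tests were chosen with earlier results of these data known. All 38 members and Ucp1 are named, with up to 4 passing genes each way from each pathway list and up to 3 from each cell type list. Replicate numbers were not taken to pair the mice. After the group mean of each gene was subtracted, same-numbered arrays correlated at -0.23 to 0.23 across genes. Differently numbered arrays were not compared, so these values do not settle whether the mice were paired. Alternatives were other background, scaling, filter and probe rules, slide and replicate blocks, an adipocyte covariate and leaving out each array. Probe coordinates are mm9 per the file headers. Promoters are RefSeq, GRCm38.p6, and Mars was matched by the symbol Mars1. Protein identity was not analysed here. Some named list genes and 1 promoter window are not reported here.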

Additional observations from a re-analysis of the deposited data

Results flagged for a closer look

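Among the values of single mice in a group, 3 stood apart from the rest of their group by more than Dixon's critical value. Over the 36 tested family members in both groups, 72 sets of values were examined and 2 were marked, where chance marks about 1 in 20. Rars in transgenic 5 was 0.32, with the next highest transgenic array at 0.01. Vars in wild type 5 was -0.30, with the next highest wild-type array at -0.48. Outside the family, Ucp1 on the array labelled wild type 4 was 0.45, with the next highest wild-type array at -2.82.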

How the results depend on the processing

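The count of higher cytosolic enzymes stayed between 11 and 15 in all 26 alternatives, and 0 were lower in each. All genes passing numbered 1303 under median centring without loess, 2635 with the adipocyte covariate and 5138 to 5708 when 1 array was left out. Mitochondrial enzymes higher numbered 1 under median centring. Scaffold proteins higher numbered 1 with the Agilent log ratio, Cy5 only and the slide as a fixed or random block, and 0 to 1 when 1 array was left out. Scaffold proteins lower numbered 2 with the Agilent log ratio and the slide as a fixed block, Aimp1 then passing. Pair differences past the threshold numbered 5 with Cy5 only, 7 to 8 when 1 array was left out and 0 with the replicate block. That block has 6 pairs of mice, and the smallest p its exact permutation test can give is 0.03125 before adjustment. The pairs of Iars, Sars, Lars and Aars had an adjusted p of 0.081 in that test. For genes, the replicate block gave 13 cytosolic and 3 mitochondrial enzymes higher and 5369 genes. No pair test was made for the random slide block or the covariate. Probes not above background limit Mars2 and Nars2.

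Of 1272 comparisons 37 fell below the threshold, 12 came above it and 49 changed sign, the 49 being without a call on either side. Under the Agilent log ratio Iars2 was 0.059 and Qars 0.031. Under median centring Aars2 was 0.16, Aimp1 0.14, Farsa 0.16, Hars2 0.10, Iars2 0.20, Qars 0.26, Rars2 0.10 and the pair Yars minus Yars2 -0.13. With Cy5 only Cars2 was -0.061, Farsa 0.010, Qars 0.010 and Eprs minus Ears2 0.065. In the authors' deposited value table Qars was 0.036, Rars -0.044 and Yars minus Yars2 -0.041. With the slide as a fixed block Iars2 was 0.031, Qars 0.0085 and Rars -0.028, and as a random block Iars2 was 0.0039 and Rars -0.0096. With the replicate block Lars2 was -0.051. With the adipocyte covariate Cars2 was -0.029, Iars2 0.11, Qars 0.15, Rars -0.013 and Sars2 -0.068. When 1 array was left out Cars2 ran from -0.016 to 0.11, Iars2 from -0.068 to 0.048, Lars2 from -0.051 to 0.085, Qars from -0.044 to 0.019, Rars from -0.057 to 0.025 and Tars minus Tars2 from -0.011 to 0.17. The cause of these changes was not tested.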
